A study of Homo sapiens with 4 samples.

Results

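BRPF3 is a scaffold protein that joins a MYST-family histone acetyltransferase to chromatin, and BRPF proteins carry domains that read modified and unmodified histone tails. Complexes of BRPF3 with the acetyltransferase HBO1 are known for acetylating histone H3 and for a role in the activation of replication origins. Chromosomes 13 and 18 are textbook gene-poor human chromosomes. Much of their DNA lies in large domains that replicate late and sit near the nuclear envelope, and chromosome 13 is acrocentric, with a short arm of repeats that hg19 leaves unassembled. Every chromatin immunoprecipitation sequencing (ChIP-seq) peak of the 3 deposited BRPF3 lists on these 2 chromosomes is described here, against the 20 other autosomes. There were 440 such peaks of 13431 in the hydroxyurea list, 372 of 11532 in the mimosine list and 424 of 13160 in the asynchronous list, or 1236 of 38123 in all. Overlapping peaks merged into 256 regions on chromosome 13 and 204 on chromosome 18, out of 14039.

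All samples came from RKO, a human colon carcinoma line, and BRPF3 was precipitated with a homemade rabbit antibody. The HU cells had 0.5 mM mimosine for 22 h, were released for 3 h and were then given 3 mM hydroxyurea (HU) for 1 h 30 min. The mimosine cells had the same 0.5 mM mimosine for 22 h and were not released, and the asynchronous cells were untreated. Mimosine holds cells near the start of DNA replication and hydroxyurea starves replication forks of nucleotides. Each condition had 1 library, and a single rabbit IgG library of HU cells was the control of all 3 lists. A description field names BRPF1/2 where the titles and the antibody field give BRPF3. With no replicates, lists and chromosomes are compared by their values alone and not by a test. Intervals are 95% and cover counting error only, and the read depth behind the lists is unknown. The members were chosen by chromosome name, and the 2 chromosomes were selected on their low number of peaks per Mb in these same lists. Density is therefore given as a description.

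The name gene-poor held in the gene table. Chromosome 13 had 338 protein-coding genes, or 2.96 per Mb between its first and last gene, the lowest of the 22 autosomes. Chromosome 18 had 270, or 3.36 per Mb, the second lowest, against a median of 5.97 per Mb for the 20 other autosomes.

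BRPF3 peaks were sparser on chromosomes 18 and 13 than on any other autosome, in all 3 lists. Chromosome 13 held 246 HU, 208 mimosine and 235 asynchronous peaks over a span of 95.8 Mb, measured from the first to the last peak of any list. That is 2.57, 2.17 and 2.45 peaks per Mb. Chromosome 18 held 194 HU, 164 mimosine and 189 asynchronous peaks over 77.9 Mb, or 2.49, 2.11 and 2.43 per Mb. The 20 other autosomes together had 4.83 HU, 4.16 mimosine and 4.72 asynchronous peaks per Mb. The density of chromosome 13 was 0.532 of theirs in the HU list, 0.522 in the mimosine list and 0.519 in the asynchronous list, and that of chromosome 18 was 0.516, 0.506 and 0.513. Chromosome 4, which has the next lowest gene density, came next with 2.63, 2.27 and 2.60 peaks per Mb. The distance between chromosomes 13 and 18 was small, so their order beside each other is not resolved. Bases under peaks differed alike, with 0.788% of the span of chromosome 13 and 0.769% of chromosome 18 covered in the HU list, against 1.58% on the other autosomes. In the mimosine list the covered share was 0.445% and 0.431%, against 0.895%, and in the asynchronous list 0.697% and 0.690%, against 1.42%.

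Set beside gene number, peaks were as frequent on these chromosomes as elsewhere. The 2 chromosomes held 6.24% of the autosomal span and 3.18% of the autosomal protein-coding genes. They held 3.37% of the HU, 3.31% of the mimosine and 3.32% of the asynchronous autosomal peaks. Per 100 protein-coding genes, chromosome 13 had 72.8 HU, 61.5 mimosine and 69.5 asynchronous peaks. Chromosome 18 had 71.9, 60.7 and 70.0. The other autosomes together had 68.0, 58.7 and 66.6, with single autosomes from 53.5 to 76.0 in the HU list. Chromosomes 13 and 18 thus lay inside the range of the others, at rank 18 and 14 from the lowest of 22 in the HU list. This depends on which genes are counted. Per 100 genes of every kind in the table, non-coding genes and pseudogenes included, the chromosomes had 16.0 and 17.5 HU peaks, against 23.3 on the other autosomes, and were the second and the third from the lowest. Across the 22 autosomes the density of peaks and that of protein-coding genes had a Spearman's rho of 0.964 in the HU, 0.968 in the mimosine and 0.954 in the asynchronous list. These points share their libraries and the IgG control, and the gene numbers come from another genome build than the peaks. They include chromosomes 13 and 18, which were selected on their low peak density in these same lists.

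**Figure D1:**
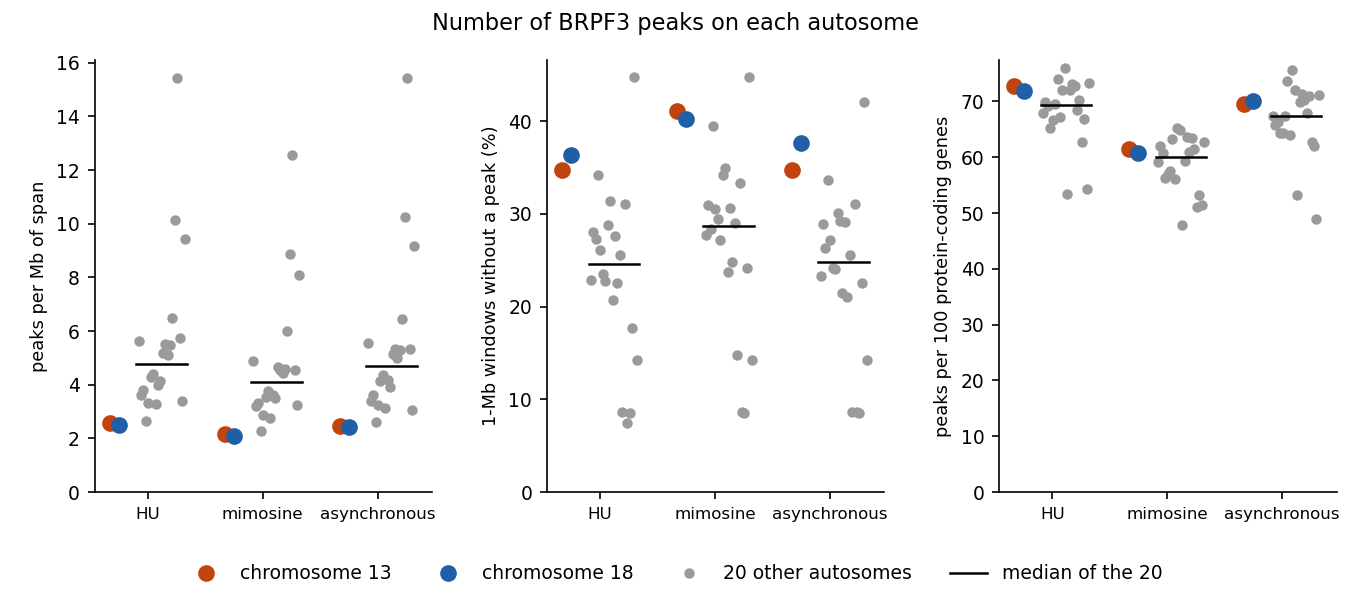
Peaks per Mb of span, percent of 1-Mb windows without a peak, and peaks per 100 protein-coding genes on each autosome, for the HU, mimosine and asynchronous lists. Each point is 1 chromosome and the line is the median of the 20 other autosomes. Chromosomes 13 and 18 are lowest in peaks per Mb (2.57 and 2.49 in the HU list) and lie among the others in peaks per 100 protein-coding genes (72.8 and 71.9).

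The low density had both more empty stretches and fewer peaks where there were any. Of 95 windows of 1 Mb on chromosome 13, 33 held no HU peak (34.7%, interval 25.3 to 45.2%), 39 no mimosine peak (41.1%, 31.1 to 51.6%) and 33 no asynchronous peak (34.7%, 25.3 to 45.2%). Of 77 windows on chromosome 18, 28 held no HU peak (36.4%, 25.7 to 48.1%), 31 no mimosine peak (40.3%, 29.2 to 52.1%) and 29 no asynchronous peak (37.7%, 26.9 to 49.4%). On the other autosomes 24.9%, 28.5% and 25.2% of windows were empty, and among them only chromosome 21 had a larger empty share than chromosome 13 or 18, with 44.7%, 44.7% and 42.1%. Assembly gaps were not left out of these windows. The intervals treat windows as independent, although empty windows often lay side by side in runs. A window with at least 1 HU peak held a mean of 3.84 on chromosome 13 and 3.76 on chromosome 18, against 6.37 on the other autosomes. In the mimosine list the means were 3.57 and 3.33, against 5.77, and in the asynchronous list 3.66 and 3.69, against 6.26. The share of windows with a peak was 0.869 and 0.847 of that of the other autosomes in the HU list, and the number of peaks per such window was 0.602 and 0.589 of theirs. With windows of 1 Mb, most of the difference in density was thus in peaks per occupied window, a split that depends on the window size.

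Empty windows were largely the same in the 3 lists. On chromosome 13, 32 windows held no peak of any list, and on chromosome 18, 28. Peak-free stretches of at least 1 Mb added up to 57.2 Mb on chromosome 13 (59.7% of the span) and 47.7 Mb on chromosome 18 (61.2%), against a median of 44.6% over the 20 other autosomes. Only chromosome 21 was higher, at 61.4%.

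Chromosome 13 was uneven along its length, dense at both ends and poor in a long stretch between. The first 10 Mb block, from 19.2 to 29.2 Mb in hg19, held 45 HU, 41 mimosine and 46 asynchronous peaks. The block from 39.2 to 49.2 Mb held 42, 35 and 40. The block from 59.2 to 69.2 Mb held 3, 2 and 2 peaks, and that from 79.2 to 89.2 Mb held 6, 3 and 6. Density was highest in the last 5.84 Mb of the span, with 5.82 HU, 4.62 mimosine and 5.13 asynchronous peaks per Mb, above the mean of the other autosomes. The densest window, chr13:113239201-114239200, held 14 HU, 9 mimosine and 13 asynchronous peaks. Its peaks made 14 regions, of which 8 were in all 3 lists.

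The longest stretches of chromosome 13 with no peak in any list were chr13:63217793-71864694 (8.65 Mb), chr13:53426349-60734982 (7.31 Mb) and chr13:85509702-90797292 (5.29 Mb). The first pair nearly joins. From the start of one to the end of the other lie 18.4 Mb that held 3 regions. The strongest of these, chr13:60969253-60973945, was in all 3 lists, with a score of 1718 in the HU, 644 in the mimosine and 2021 in the asynchronous list. Its neighbour chr13:60734983-60739710 was also in all 3 lists, with scores of 448, 278 and 564. The other, chr13:63216731-63217792, was in the HU list only, with a score of 75.5. The score is the authors' own peak value, on a scale not given in the sources used here, and a higher score was read as a stronger peak. Within single lists the longest empty stretch of chromosome 13 was 9.22 Mb in HU, 11.5 Mb in mimosine and 10.9 Mb in asynchronous cells.

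Chromosome 18 was more even over blocks of 10 Mb. Its 10 Mb blocks held 12 to 36 HU, 11 to 29 mimosine and 11 to 33 asynchronous peaks, with the fewest from 60.1 to 70.1 Mb. The densest window, chr18:12096391-13096390, held 13 HU, 9 mimosine and 11 asynchronous peaks in 14 regions, 8 of them in all 3 lists. The longest peak-free stretches were chr18:24238219-29077222 (4.84 Mb), chr18:61639516-66380345 (4.74 Mb) and chr18:14451215-18687402 (4.24 Mb), the last of which spans the centromere. The first was equally long in every list, at 4.84 Mb in HU, mimosine and asynchronous cells. Within the chromosomes, peaks were concentrated about as strongly as elsewhere. The densest 20% of windows held 58.8% of the HU peaks in windows of chromosome 13 and 58.2% of those of chromosome 18, against a median of 57.5% over the other autosomes. In the mimosine list the shares were 58.0% and 61.4%, against 58.5%, and in the asynchronous list 59.0% and 55.9%, against 57.6%.

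**Figure D2:**
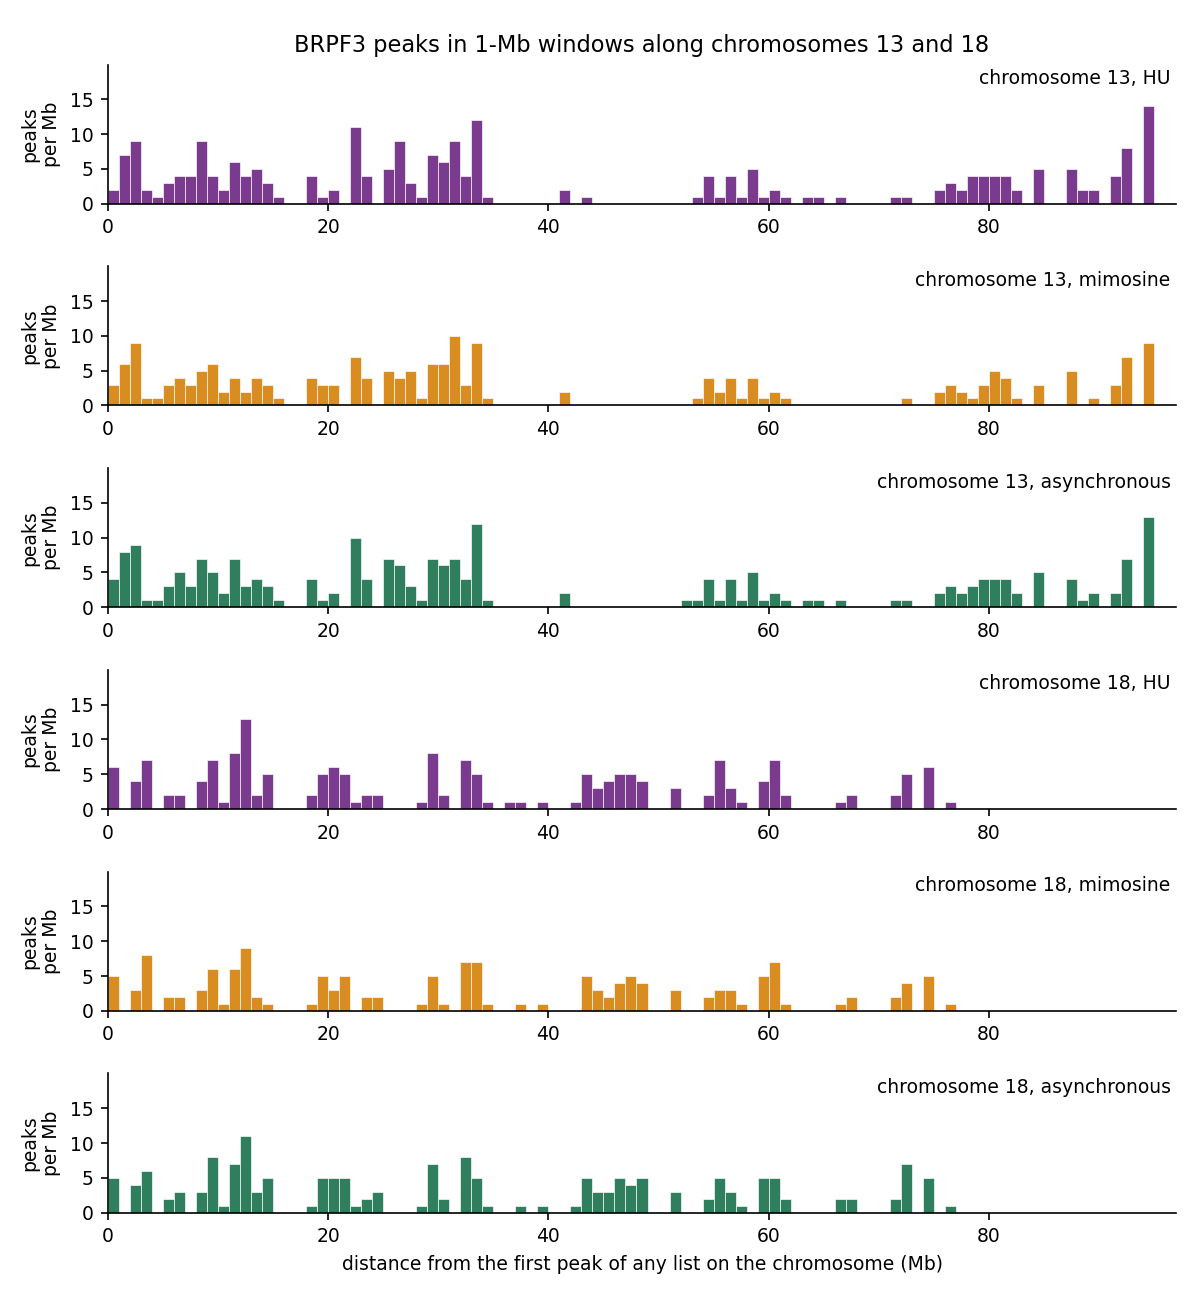
Number of peaks in 1-Mb windows (bars) along chromosome 13 and chromosome 18, for the HU, mimosine and asynchronous lists, by distance in Mb from the first peak of any list on the chromosome. The last, partial window is not drawn. Chromosome 13 has a long, nearly empty stretch near its middle in every list, and chromosome 18 alternates between filled and empty windows.

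Neighbouring regions lay far apart. The median distance to the next region was 101 kb on chromosome 13 and 104 kb on chromosome 18, the longest of the 22 autosomes, against a median of 57.6 kb over the others and 98.97 kb on chromosome 4. A region within 50 kb of another was still the most common kind, with 135 of 256 regions on chromosome 13 (52.7%) and 105 of 204 on chromosome 18 (51.5%), against a median of 63.8% over the other autosomes. Regions more than 500 kb from any other numbered 16 on chromosome 13 (6.25%) and 9 on chromosome 18 (4.41%), against a median of 1.77%. Chromosome 4 was alike, with 4.45% of its regions beyond 500 kb and 52.3% within 50 kb of another. Its median distance to the nearest region on either side was the longest of the autosomes, at 47.6 kb, against 45.8 kb on chromosome 13 and 45.9 kb on chromosome 18.

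Widths of single peaks were close to those of other autosomes. HU peaks had a median width of 2893.5 bp on chromosome 13 (interval 2626 to 3109 bp) and 3047.5 bp on chromosome 18 (2620 to 3431 bp), against 2919 bp on the other autosomes (2884 to 2947 bp). Mimosine peaks had medians of 1823.5 bp (1618 to 1970 bp) and 1774 bp (1641 to 2021 bp), against 1880 bp (1854 to 1907 bp). Asynchronous peaks had medians of 2571 bp (2406 to 2780 bp) and 2681 bp (2515 to 3026 bp), against 2670 bp (2641 to 2700 bp). Each of these 6 medians had an interval that held the median of the other autosomes. Mimosine peaks were the narrowest on both chromosomes, as in the lists as a whole.

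The widest peaks were missing. No peak of chromosome 13 or 18 was wider than 10 kb in any list, and the widest were an HU peak of 9965 bp on chromosome 18 and an HU peak of 9090 bp on chromosome 13. The other autosomes had 152 HU (1.21%), 28 mimosine (0.258%) and 112 asynchronous peaks (0.908%) of that width, and each of them had at least 1 in the HU and in the asynchronous list. Single autosomes differed widely, from 0.171% on chromosome 16 to 3.39% on chromosome 9 in the HU list. In the asynchronous list they ran from 0.172% on chromosome 16 to 2.21% on chromosome 9, so some came close to 0. The share above 10 kb was not a planned result, and the number on chromosomes 13 and 18 was small to begin with. At the pooled share of the other autosomes, their 440 HU peaks would hold 5.31, their 372 mimosine peaks 0.959 and their 424 asynchronous peaks 3.85. These numbers leave out the spread between single autosomes. The exact 95% interval of 0 of 440 HU peaks reaches 0.835%, that of 0 of 372 mimosine peaks 0.987% and that of 0 of 424 asynchronous peaks 0.866%, the last only just below the share of the other autosomes. The limit of 3 counts over the number of peaks is lower, at 0.682% for HU, 0.806% for mimosine and 0.708% for asynchronous peaks. A difference was therefore not detectable for mimosine at this number of peaks, and 7 of the other autosomes also had 0 mimosine peaks of that width. On each chromosome alone, the interval held the share of the other autosomes in every list. For HU peaks it reached 1.49% on chromosome 13 and 1.88% on chromosome 18, and for asynchronous peaks 1.56% and 1.93%. Above 8 kb, a width chosen after the data were seen, there were 4 HU peaks (0.909%, interval 0.248 to 2.31%), 0 mimosine peaks and 3 asynchronous peaks (0.708%, 0.146 to 2.05%), against 2.52%, 0.617% and 1.97% on the other autosomes. Above 5 kb the shares were 10.2% (7.56 to 13.4%), 2.15% (0.933 to 4.19%) and 7.55% (5.22 to 10.5%), against 13.2%, 3.65% and 9.60%, and all 3 intervals held the value of the other autosomes.

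**Figure D3:**
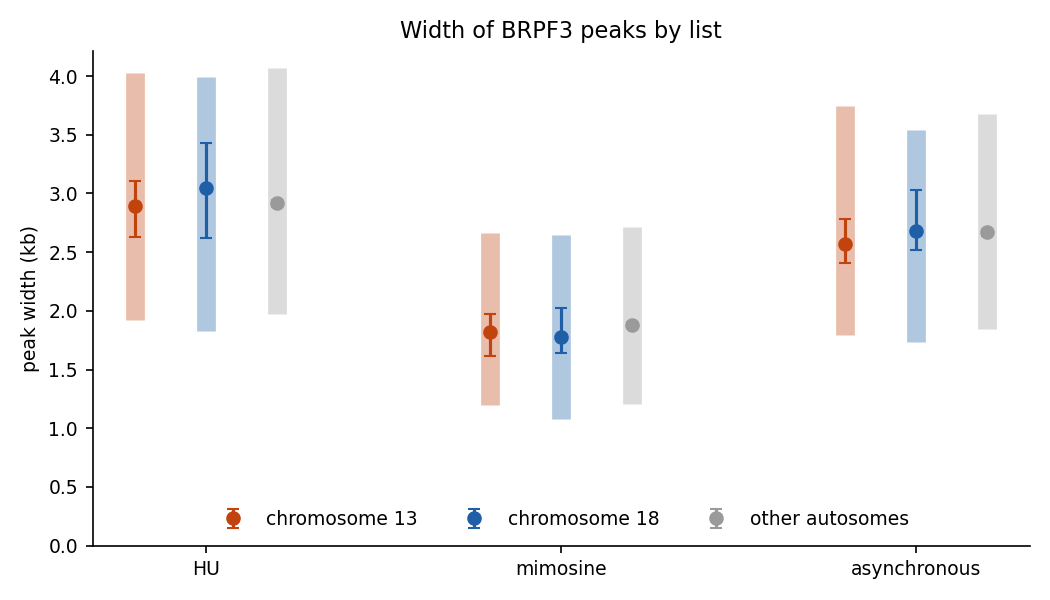
Width of peaks in kb on chromosome 13, chromosome 18 and the 20 other autosomes pooled, for the HU, mimosine and asynchronous lists. Points are medians with 95% intervals and pale bars run over the middle 50% of peaks. In each list the intervals of both chromosomes hold the median of the other autosomes, for example 2919 bp in the HU list.

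Median scores were slightly above those of the other autosomes in every list, by less than the width of their intervals. The median HU score was 579 on chromosome 13 (interval 448 to 702) and 574 on chromosome 18 (414 to 757), against 546 on the other autosomes. Mimosine peaks had medians of 297 (233 to 361) and 304 (247 to 401), against 280. Asynchronous peaks had medians of 667 (537 to 858) and 626 (471 to 724), against 573. Scores below 100 were carried by 17.1% and 14.4% of HU peaks, against 14.7%, by 21.2% and 18.3% of mimosine peaks, against 21.2%, and by 14.0% and 12.2% of asynchronous peaks, against 12.98%. The score is tied at 3100 for many of the strongest peaks. Scores of 3100 or more were held by 20 HU (8.13%), 5 mimosine (2.40%) and 21 asynchronous peaks (8.94%) on chromosome 13. On chromosome 18 they were held by 11 (5.67%), 2 (1.22%) and 14 (7.41%), against 7.40%, 3.02% and 7.59% on the other autosomes. The share of chromosome 18 was thus near theirs in the asynchronous list. It was lower in the HU and mimosine lists, where it rests on only 11 and 2 peaks.

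Most regions of these chromosomes were called in all 3 conditions, at shares near those of all 22 autosomes. On chromosome 13, 181 of 256 regions (70.7%, interval 64.7 to 76.2%) held a peak in each list, and on chromosome 18, 143 of 204 (70.1%, 63.3 to 76.3%). Over all autosomes the share was 71.9%. The regions called in HU cells only numbered 21 on chromosome 13 (8.20%, 5.15 to 12.3%) and 20 on chromosome 18 (9.80%, 6.09 to 14.7%), against 8.15% over all autosomes. Those of asynchronous cells only numbered 9 (3.52%, 1.62 to 6.57%) and 11 (5.39%, 2.72 to 9.44%), against 4.93%. On chromosome 13, 2 regions (0.781%) were in the HU and mimosine lists, 2 (0.781%) in the mimosine and asynchronous lists and 1 (0.391%) in the mimosine list only. Chromosome 18 had 0 regions of these 3 kinds, which were also rare on the other autosomes, at 0.349%, 0.122% and 0.236%. Mimosine peaks without an HU peak numbered 3 of 208 on chromosome 13 and 0 of 164 on chromosome 18, against 47 of 10863 on the other autosomes.

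Regions without a mimosine peak also made up a share near that of all autosomes. Of the regions in both the HU and the asynchronous list, 40 of 221 on chromosome 13 (18.1%, interval 13.3 to 23.8%) and 30 of 173 on chromosome 18 (17.3%, 12.02 to 23.8%) had no mimosine peak. The share over all autosomes was 16.6%. All 70 of these regions lay in the lower-scoring 50% of such regions, where they made up 38.5% of 104 regions on chromosome 13 and 35.3% of 85 on chromosome 18, against 32.99% on the other autosomes. In the higher-scoring 50%, 0 of 117 and 0 of 88 regions lacked a mimosine peak, against 1 of 5667. With the rates of the other autosomes in each of 10 score groups, chromosome 13 would have 38.0 such regions and chromosome 18 would have 23.7, against the 40 and 30 observed.

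**Figure D4:**
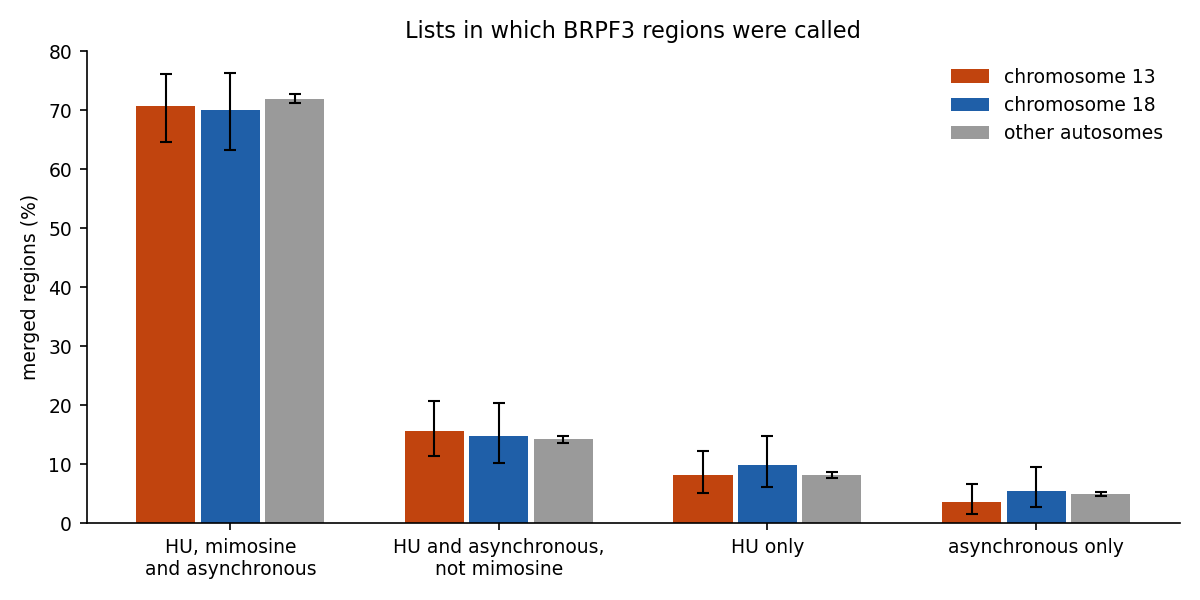
Percent of merged regions by the lists that held a peak, on chromosome 13, chromosome 18 and the 20 other autosomes, with exact 95% intervals as error bars. Regions in all 3 lists made up 70.7% on chromosome 13 and 70.1% on chromosome 18, and all intervals of these chromosomes hold the share of the other autosomes.

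At sites with exactly 1 peak per list, mimosine peaks were narrower and HU peaks wider than asynchronous ones, as over the genome. Chromosome 13 had 160 such sites and chromosome 18 had 119. The mimosine peak was narrower than the asynchronous peak at 157 of 160 and at 119 of 119 sites, against 98.2% over all autosomes. The median width ratio of mimosine over asynchronous peaks was 0.687 on chromosome 13 (interval 0.639 to 0.727) and 0.680 on chromosome 18 (0.654 to 0.722), against 0.696 on the other autosomes. The HU peak was wider than the asynchronous peak at 127 of 160 sites on chromosome 13 (79.4%) and at 92 of 119 on chromosome 18 (77.3%), against 75.1% over all autosomes. The median ratio of HU over asynchronous width was 1.13 on chromosome 13 (1.10 to 1.15), above the 1.09 of the other autosomes (1.085 to 1.094). It was the second highest of the 22 autosomes, after chromosome 21 at 1.14. On chromosome 18 the ratio was 1.09 (1.06 to 1.12). Of the regions in all 3 lists, 19 of 181 on chromosome 13 (10.5%, 6.44 to 15.9%) and 18 of 143 on chromosome 18 (12.6%, 7.63 to 19.2%) were split into several mimosine peaks, against 11.8% on the other autosomes.

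The highest-ranked regions are given as examples, since ties at 3100 leave their order open to the choice of the wider region. On chromosome 13, chr13:80908654-80917838 scored 3100 in every list and was also the widest region, at 9185 bp. It was covered by an HU peak of 9090 bp, a mimosine peak of 6800 bp and an asynchronous peak of 6855 bp, and the nearest other region was 851 kb away. The region chr13:107181476-107189403 also scored 3100 in all 3 lists, with peaks of 7928 bp in HU, 6421 bp in mimosine and 7539 bp in asynchronous cells. In chr13:50651320-50658590 a single HU peak of 7271 bp and an asynchronous peak of 6948 bp stood beside 3 mimosine peaks, the widest 4306 bp. The others of the leading 5 were chr13:31730591-31737767 and chr13:111363288-111370389. The second widest, chr13:45145062-45153847, was covered by HU peaks over 93.7%, by asynchronous peaks over 100% and by mimosine peaks over 46.4% of its 8786 bp.

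On chromosome 18, chr18:29256176-29266251 was both the leading and the widest region, at 10076 bp. Its HU peak was 9965 bp, its mimosine peak 6899 bp and its asynchronous peak 9038 bp wide, all with a score of 3100. The region chr18:3446540-3455334 also scored 3100 in all 3 lists, with peaks of 8795 bp in HU, 7575 bp in mimosine and 8481 bp in asynchronous cells. The others were chr18:60188552-60194685, chr18:3260038-3265224 and chr18:3245001-3251696, which scored 3100 in HU and asynchronous cells and 2523, 2512 and 2080 in mimosine cells. Among the widest, chr18:47011941-47019318 kept 91.6% of its 7378 bp under a mimosine peak.

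Regions missing from at least 1 list were narrower and mostly low in score. On chromosome 13 the median region width was 1567.5 bp for regions in HU and asynchronous cells, 998 bp for HU only and 794 bp for asynchronous only, against 3474 bp for regions in all 3 lists, which are joined from more peaks. On chromosome 18 the medians were 1609, 957.5 and 898 bp, against 3602 bp. Among those in HU and asynchronous cells without a mimosine peak, chr13:97874202-97877118 led chromosome 13, with scores of 389 in HU and 350 in asynchronous cells. It was followed by chr13:108865581-108868544, with 381 and 312, and chr13:49105871-49108175, with 278 and 302. On chromosome 18 the leading ones were chr18:5294305-5296121, with 265 and 360, chr18:20714914-20716628, with 253 and 251, and chr18:59992271-59993814, with 204 and 249. The leading HU-only region of chromosome 13, chr13:45491045-45493862, scored 221 and was 2818 bp wide, while the median score of the 21 such regions was 64.5. On chromosome 18 the leading HU-only region, chr18:29536707-29537408, scored 106. The leading asynchronous-only regions were chr13:52164309-52165597, with a score of 97.7, and chr18:48661063-48662087, with 84.4. The region chr13:113838946-113842276, in the densest window, was in the HU and mimosine lists and not in the asynchronous one, with scores of 396 and 120. The region chr13:19239201-19240015, the first of the chromosome, was in the mimosine and asynchronous lists, with scores of 52.7 and 70.8. The only mimosine-only region, chr13:29236535-29237054, scored 58.0 and lay 0.193 kb from another region.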

How the data were processed

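Per the submitters' processing notes, Bowtie 0.12.8, SAMtools, MACS 1.4.0 and bedtools were used, with hg18 and hg19 both named, and the order and settings are not given in the sources used here. Each deposited list holds the peaks of 1 BRPF3 library, called by the authors against the IgG library per the names of the lists. The score of each peak is the authors' deposited value, at least 50 throughout, and how it was made is not given in the sources used here. It was used only to rank or filter peaks within a list and to describe them. The last peaks on chromosome 13 lie past its end in hg18, so positions were read as hg19, counted from 1. Peaks sharing at least 1 bp were merged into regions. Medians have order-statistic intervals and shares exact Clopper-Pearson intervals. Peak centres were counted in full windows of 1 Mb from the first peak of any list. Score groups for regions in the HU and asynchronous lists used the lower of the 2 within-list ranks. Gene numbers per chromosome came from the RefSeq table of GRCh38, with no coordinates joined. No genome of the files' build was used, so genes at peaks and their sequences are not given.

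Named regions were, on each chromosome, the 5 highest by the lower within-list score rank among regions in all 3 lists, 3 among those without a mimosine peak, 1 of each other class, the 3 widest, the densest window and the 3 longest stretches without a peak. The chromosomes, measures and this rule were chosen with earlier results of these data known. The regions between the long empty stretches and the widths of 5 and 8 kb were added after values were seen. The share of peaks wider than 10 kb was not planned either, and 10 kb was planned only as a filter for median widths. The count of regions without a mimosine peak and the width ratio were tested on copies of the HU list. In these, peaks were removed at random whatever their score and the rest were narrowed. Window counts and gaps were tested on a few made-up peaks, and the other measures were not tested in this way. The software was matplotlib 3.10.9, SciPy 1.17.1, NumPy 2.4.6 and pandas 2.3.3, run under Python 3.11.15.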

Additional observations from a re-analysis of the deposited data

How the results depend on the processing

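The density of chromosomes 13 and 18 was 0.496 to 0.584 of that of the other autosomes over the alternatives run. Because the 2 chromosomes were selected on their low density in these same lists, these ratios describe that density and add no support for it. The alternatives were each list's own span, merging within 1 kb, other autosomes without chromosomes 17 and 19, scores of at least 100, and the 5766 highest-scoring peaks of every list. Of 134 values compared over all results, 91 kept within the spread set for them and 43 moved. Peaks wider than 5 kb in place of 10 kb, chosen after the data were seen, made up 5 of those, at 3.05% to 10.6% of a chromosome's peaks. Values below are in the order HU, mimosine and asynchronous, first for chromosome 13 and then for chromosome 18. Equal numbers use fewer peaks by construction and gave 1.16, 1.13 and 1.21, then 1.12, 1.09 and 1.12 peaks per Mb. They also gave median widths of 4038, 2588.5 and 3747.5 bp, then 3995, 2612 and 3541 bp, against 4160, 2643 and 3714 bp on the other autosomes. A score of 100 or more moved median widths to 3193.5, 2078 and 2786 bp on chromosome 13 and to 2050 bp for mimosine on chromosome 18, and merging moved the mimosine medians to 2009 and 2109 bp. Windows of 0.5 Mb without a peak made up 52.4%, 55.5% and 51.8%, then 51.6%, 54.2% and 52.3%, against 39.4%, 43.8% and 40.0% on the other autosomes. Windows of 2 Mb gave 17.02%, 27.7% and 19.1%, then 18.4% in each list, against 12.7%, 14.8% and 12.8% on the other autosomes. Per 100 genes of any kind there were 16.0, 13.5 and 15.3 peaks, then 17.5, 14.8 and 17.1, against 23.3, 20.1 and 22.8 on the other autosomes, which turns the comparison with them round. Without a mimosine peak were 8.82% and 10.1% of HU and asynchronous regions at equal numbers, against 6.94% on the other autosomes. The cause of that last shift was not tested. Without read depths, an absent peak cannot be told from one below the calling limit. No paired analysis was possible because each condition had 1 library.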

Other observations

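The share of regions called in all conditions is given here by distance to the nearest other region, for chromosomes 13 and 18 together and then for each. Of the 25 regions more than 500 kb from another, 17 were in all 3 lists (68.0%, interval 46.5 to 85.1%) and 2 were called in a single list. Of the 195 regions whose nearest neighbour lay between 50 and 500 kb away, 152 (77.9%, 71.5 to 83.6%) were in all 3 lists. Among the 240 regions within 50 kb of another, 155 (64.6%, 58.2 to 70.6%) were in all 3 lists and 41 were in a single list. Beyond 500 kb the share was 62.5% (10 of 16, 35.4 to 84.8%) on chromosome 13 and 77.8% (7 of 9, 39.99 to 97.2%) on chromosome 18. On chromosome 13 alone the shares at the middle and the close distances were 80.0% (71.1 to 87.2%) and 64.4% (55.8 to 72.5%). On chromosome 18 alone they were 75.6% (65.4 to 84.0%) and 64.8% (54.8 to 73.8%). These intervals overlap on each chromosome, which does not decide whether the shares differ, and the difference was not tested. On the other autosomes the shares in all 3 lists were 65.9% beyond 500 kb, 75.9% at the middle and 70.4% at the close distances. Chromosomes 13 and 18 together and the other autosomes thus both had their highest share at the middle distances. On chromosome 18 alone the share was highest beyond 500 kb, on 9 regions. Median score rank percentiles on chromosomes 13 and 18, from the most isolated group to the close one, were 40.1, 54.5 and 50.7 in the HU list, 49.3, 53.6 and 58.6 in the mimosine list and 41.0, 58.6 and 53.2 in the asynchronous list. For the chromosomes together, the mimosine ranks were thus highest in the close group and the others at the middle distances. The mimosine order also held on chromosome 13 alone. It did not hold on chromosome 18 alone or on the other autosomes, where mimosine ranks too were highest at the middle distances. Each median covers only regions with a peak in that list, so the lists are not compared on the same regions. These differences were not tested.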
